A study of Rattus norvegicus with 9 samples.

Results

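The base excision, nucleotide excision and mismatch repair genes of rat aortic smooth muscle cells were followed on 9 Affymetrix Rat Gene 1.0 ST arrays. Earlier results of these data were known when the genes were chosen. A set of 44 was taken by name for their place in these pathways, with direct damage reversal added. Of these, 35 carry a probe set annotated with a single gene symbol, and each is represented by 1 probe set. The other 9, *Neil3*, *Mbd4*, *Apex2*, *Ddb1*, *Ddb2*, *Ercc2*, *Ercc4*, *Ercc5* and *Msh6*, were not analysed here. The 35 stand among 14324 gene symbols and 27342 probe sets on the array. Cells were primary, at low passage and made quiescent by low serum, and came from a commercial stock. They were kept for 6 hr in K+-free DMEM (3 arrays), in DMEM with 3 mM ouabain (3 arrays) or in control DMEM (3 arrays). Every group was first washed with K+-free DMEM. Ouabain binds the Na+,K+-ATPase and blocks it, whereas removal of external K+ stops the same pump for lack of the ion it carries inward. The question put by the design is which transcripts follow the raised Na+/K+ ratio of the cell under both treatments.

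Cells mend small lesions of single bases by base excision repair. A DNA glycosylase cuts out the damaged base, an endonuclease opens the strand, and a polymerase and a ligase close the gap with the help of poly(ADP-ribose) polymerases and scaffold proteins. Bulky lesions are removed by nucleotide excision repair as a short stretch of strand, found either across the genome or where RNA polymerase has stalled. Mismatch repair corrects errors of replication, with MutS proteins that find the mismatch and MutL proteins that direct its removal. Oxidised bases also arise in cells that do not divide.

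Values are log2 signals, so that a difference of 1 is a 2-fold change. They cannot be set against each other between genes, as probes differ in brightness. The 9 arrays had medians of 6.76 to 6.80, and replicates correlated at 0.996 or more across probe sets. A limma model was fitted over all 9 arrays, and a gene was called changed where its fold was above 1.2 and its p, adjusted after Benjamini-Hochberg, was under 0.05. With 3 arrays in a group an exact permutation test of a single gene cannot go below p = 0.1, so the moderated fit was used throughout. Of 8 smooth muscle markers measured, *Tagln*, *Cnn1*, *Cald1* and the others all lay above the array medians. The endothelial markers *Cdh5*, *Tie1*, *Tek* and *Emcn* averaged 5.66 to 5.90 over all arrays, below those medians. The fibroblast markers *Col1a1*, *Col1a2*, *Lum*, *Thy1*, *Pdgfra* and *Fbln1* lay above the array medians as well, whereas *Dcn* lay below the median of every array. In whole cultures fewer cells of a kind and less RNA per cell cannot be told apart.

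Transcripts of DNA repair were mostly lower under both treatments. In K+-free medium 25 of the 35 measured genes fell and 2 rose, against 17.9% of all probe sets that fell and 16.1% that rose (33.9% in either direction). In ouabain 23 fell and 3 rose, against 16.8% and 15.8% of all probe sets (32.5% in either direction). As shares of the measured genes, 71.4% fell in K+-free medium and 65.7% in ouabain. Among the 14324 genes with a single symbol the corresponding shares were 24.0% and 22.7%. Neither background was matched for brightness, and only 2 of the 35 genes lay under the median of every array. The median log2 difference of the 35 genes was -0.54 in K+-free medium and -0.54 in ouabain, beside medians of 0.05 and 0.06 over all genes with a symbol. Changes ran from -2.35 to 0.44 in K+-free medium and from -1.98 to 0.52 in ouabain. A fall past 2-fold was seen for 10 of the 35 genes in K+-free medium and 9 in ouabain, where 4.11% and 3.94% of all probe sets fell as far. In total 22 genes fell under both treatments, against 13.9% of all probe sets, 2 rose under both (10.6% of all probe sets), and none changed in opposite directions (0.556% of all probe sets). The 3 K+-free arrays lay wholly below the controls in 26 genes and wholly above in 4, and the ouabain arrays lay wholly below in 24 and wholly above in 3. Over all probe sets the K+-free arrays did not overlap the controls in 57.1%, 24.0% being lower, and the ouabain arrays did not overlap them in 54.2%, 21.5% being lower. The comparisons use the same control arrays. The study itself lists *Ogg1*, *Mutyh*, *Parp1* and *Parp2* among its lowered genes, chosen on these samples, so their falls are not independent evidence. Without these 4, 21 of 31 genes fell in K+-free medium and 19 of 31 in ouabain.

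**Figure D1:**
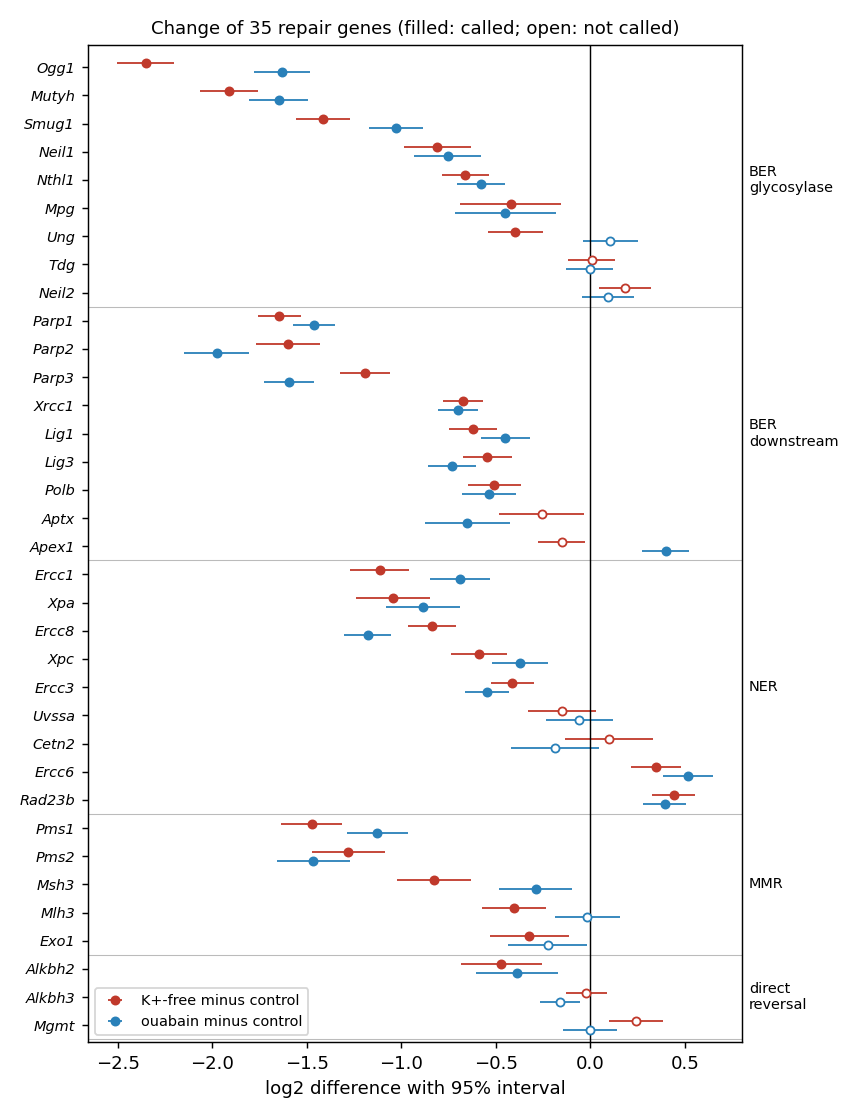
Log2 difference from control (horizontal axis) of each of the 35 repair genes in K+-free medium (red, upper point) and in ouabain (blue, lower point), grouped by pathway, with the 95% interval of the limma fit and filled points for called changes. Most points lie left of 0, from -2.35 for *Ogg1* in K+-free medium, and *Rad23b* and *Ercc6* lie to the right of 0 under both treatments.

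*Ogg1* encodes the glycosylase that removes oxidised guanine paired with cytosine. Its log2 signal was 6.59, 6.63 and 6.48 in K+-free medium and 7.15, 7.38 and 7.33 in ouabain, against 8.88, 8.93 and 8.94 in control cells. The 3 groups did not overlap, K+-free medium being lowest and control highest. Relative to control cells *Ogg1* was 5.11-fold lower in K+-free medium (log2 difference -2.35, SE 0.068, limma adjusted p = 8.4e-10) and 3.10-fold lower in ouabain (-1.63, adjusted p = 1.26e-08). The K+-free signals lay below the array medians, and background was not measured on these arrays. Its partner in the same defence, *Mutyh*, removes adenine that has been placed opposite oxidised guanine. *Mutyh* stood at 6.89, 6.85 and 6.80 in K+-free medium and 6.96, 7.16 and 7.20 in ouabain, against 8.71, 8.84 and 8.72 in control cells. Here too every treated array was below every control array. The log2 differences were -1.91 (SE 0.070, limma adjusted p = 4.04e-09) in K+-free medium and -1.65 (adjusted p = 1.42e-08) in ouabain.

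The promoters of this pair are shown because they are the deepest falls among the glycosylases. Each run covers the 250 bases before the annotated start and 50 after it, 5′ to 3′ on the gene's strand, from RefSeq on the build GRCr8. Capitals mark 4 short motifs on either strand. These are GGGCGG, the core of the GC box, then CCAAT, the core of the CCAAT box, then ACGTG, the core of several basic helix-loop-helix and leucine zipper sites, and finally GCGTG, the core of xenobiotic response elements. The study searched longer windows for ACGTG and GCGTG together, as the consensus of hypoxia response elements. It concluded that holding this consensus is not enough to predict regulation through HIF-1.
Ogg1, chr4:148030336-148030635, plus strand: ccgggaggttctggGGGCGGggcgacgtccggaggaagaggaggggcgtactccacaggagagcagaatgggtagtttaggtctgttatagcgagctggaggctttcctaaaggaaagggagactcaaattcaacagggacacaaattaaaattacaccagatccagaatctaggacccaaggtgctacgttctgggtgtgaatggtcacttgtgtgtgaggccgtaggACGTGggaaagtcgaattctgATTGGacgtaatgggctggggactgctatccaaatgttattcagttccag
Mutyh, chr5:135510504-135510803, plus strand: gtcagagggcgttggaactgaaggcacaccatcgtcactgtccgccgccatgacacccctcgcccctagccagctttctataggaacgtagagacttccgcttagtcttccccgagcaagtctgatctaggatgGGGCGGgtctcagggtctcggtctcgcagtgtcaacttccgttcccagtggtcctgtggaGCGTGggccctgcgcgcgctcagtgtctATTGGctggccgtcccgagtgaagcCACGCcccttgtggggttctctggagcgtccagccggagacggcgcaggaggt

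Both promoters hold 1 GGGCGG and 1 CCAAT. *Ogg1* has 1 ACGTG and no GCGTG, while *Mutyh* has no ACGTG and 2 GCGTG. Their GC content was 51.7% for *Ogg1* and 62.7% for *Mutyh*, against a median of 58.0% over genes on the array.

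The remaining glycosylases spread from a deep fall to no detectable change. *Smug1*, which removes uracil and oxidised uracil derivatives, had signals of 7.07, 7.05 and 7.07 in K+-free medium and 7.31, 7.55 and 7.48 in ouabain, against 8.45, 8.44 and 8.53 in control cells. It was 2.67-fold lower in K+-free medium (limma adjusted p = 1.83e-08) and 2.04-fold lower in ouabain (adjusted p = 2.16e-07), without overlap between any of the groups. *Ung*, the main uracil glycosylase, went apart from it. Its signals were 8.18, 8.29 and 8.16 in K+-free medium and 8.63, 8.80 and 8.71 in ouabain, against 8.52, 8.68 and 8.61 in control cells. The K+-free arrays lay below the controls (-0.40, SE 0.066, limma adjusted p = 0.000449), whereas the ouabain arrays overlapped the controls (0.11, adjusted p = 0.219). After repeated quantile normalization the fall in K+-free medium was by 0.20 and was no longer called, and a rise by 0.32 was called in ouabain.

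*Neil1* and *Nthl1*, both glycosylases of oxidised pyrimidines, fell under both treatments. *Nthl1* fell by 0.66 in K+-free medium and by 0.58 in ouabain, with signals of 6.91 to 7.05 and 7.03 to 7.09, against 7.57 to 7.69 in control cells. *Neil1* fell by 0.81 in K+-free medium and by 0.75 in ouabain, and all of its treated signals, at most 5.99, lay below the array medians. *Mpg*, which excises alkylated purines, fell by 0.42 (limma adjusted p = 0.0142) and by 0.45 (adjusted p = 0.0106). Its signals, from 5.83 to 6.74, were under the median of every array, and its fall in K+-free medium was no longer called without control replicate 1 (-0.30) or K+-free replicate 3 (-0.37). Both falls of *Mpg* lost their call under an ordinary analysis of variance and under the methods' t-test after Benjamini-Hochberg adjustment. *Tdg*, which acts on thymine mispaired with guanine and on intermediates of DNA demethylation, differed by 0.01 in K+-free medium (95% interval -0.12 to 0.13) and by less than 0.01 in size in ouabain (95% interval -0.13 to 0.12). *Neil2* was at 5.04 to 5.12 in K+-free medium and 4.86 to 5.06 in ouabain, against 4.88 to 4.91 in control cells, all below the array medians, and was not called. Of the 9 glycosylases measured, 7 fell in K+-free medium and 6 in ouabain, and none rose. Exceptions under other settings were the rise of *Ung* given above and *Neil2*, called higher in K+-free medium where no fold limit was set (0.18).

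**Figure D2:**
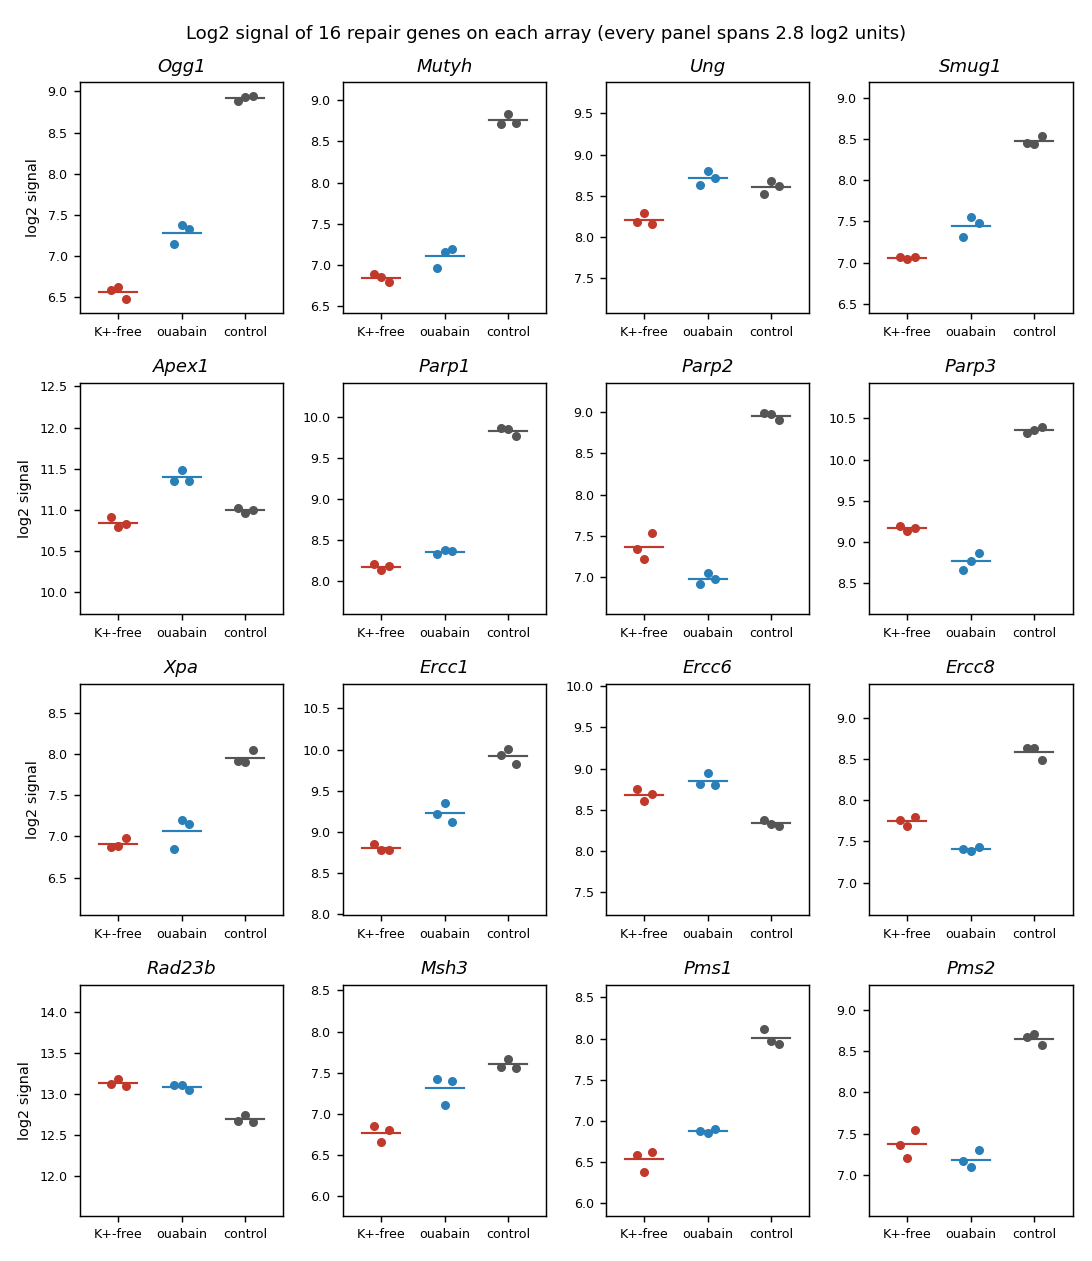
Log2 signal (vertical axis, every panel spanning 2.8 units) of 16 repair genes on each array, with K+-free medium in red, ouabain in blue and control in grey, from left to right. Points are arrays and lines are group means. In *Ogg1*, *Mutyh* and the 3 *Parp* genes all treated arrays lie well below the controls, while in *Ercc6* and *Rad23b* they lie above.

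The strand break sensors fell together. *Parp1*, which builds poly(ADP-ribose) at broken DNA and recruits the repair scaffold, had signals of 8.21, 8.14 and 8.18 in K+-free medium and 8.33, 8.38 and 8.37 in ouabain, against 9.87, 9.85 and 9.76 in control cells. This was 3.13-fold lower than in control cells for K+-free medium (-1.65, SE 0.051, limma adjusted p = 1.33e-09) and 2.75-fold lower for ouabain (-1.46, adjusted p = 4.82e-09). *Parp2*, its closest relative, stood at 7.33, 7.21 and 7.53 in K+-free medium and at 6.91, 7.05 and 6.97 in ouabain, against 8.99, 8.97 and 8.91 in control cells. The order of the treatments was the other way round, with differences of -1.60 in K+-free medium (limma adjusted p = 2.68e-08) and -1.98 in ouabain (adjusted p = 8.9e-09). *Parp3*, which acts at double-strand breaks and single-strand nicks, had signals of 9.19, 9.14 and 9.17 in K+-free medium and 8.66, 8.77 and 8.87 in ouabain, against 10.32, 10.36 and 10.39 in control cells. Relative to control it was 2.29-fold lower in K+-free medium (limma adjusted p = 3.34e-08) and 3.02-fold lower in ouabain (adjusted p = 6.78e-09). None of the treated arrays overlapped a control array in these 3 genes. *Parg*, whose product degrades poly(ADP-ribose), fell as well (-1.13 in K+-free medium and -1.51 in ouabain).

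The scaffold, polymerase and ligases of the pathway fell less far. *Xrcc1*, on which the short patch repair proteins assemble, was at 7.23 to 7.30 in K+-free medium and 7.21 to 7.26 in ouabain, against 7.90 to 7.96 in control cells. It fell by 0.67 and by 0.70 (limma adjusted p = 5.04e-07 and 4.38e-07), nearly alike in K+-free medium and ouabain, with a 95% interval of the difference of -0.08 to 0.13. Its partner ligase *Lig3* fell by 0.54 and by 0.73, the gap-filling polymerase *Polb* fell by 0.51 and by 0.54, and the replicative ligase *Lig1* fell by 0.62 and by 0.45, in each case in K+-free medium and then in ouabain. No treated array of these genes overlapped the controls. *Aptx*, which clears ligation intermediates that have failed, fell by 0.65 in ouabain (limma adjusted p = 0.000309), whereas in K+-free medium its arrays overlapped the controls (-0.26, adjusted p = 0.0605). That difference was called without control replicate 3 (-0.34) or K+-free replicate 1 (-0.33), and with signals centred on the reference genes (-0.32) or on *B2m* (-0.42).

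*Apex1*, the main endonuclease at abasic sites, stood apart from all of these. Its signals were 10.92, 10.80 and 10.83 in K+-free medium and 11.36, 11.48 and 11.36 in ouabain, against 11.03, 10.97 and 11.00 in control cells. The 3 groups did not overlap, with ouabain highest and K+-free medium lowest. *Apex1* rose by 0.40 in ouabain (SE 0.056, limma adjusted p = 0.000137). In K+-free medium it differed by -0.15 (adjusted p = 0.0497), under the fold limit. With signals centred on *B2m* the rise in ouabain became 0.25 and was not called, and a fall by 0.31 was called in K+-free medium. Of the 9 measured members downstream of the glycosylases, 7 fell and none rose in K+-free medium, and 8 fell and 1 rose in ouabain. Further genes of base excision and gap filling were counted apart, and of these 19, 12 fell in K+-free medium and 9 in ouabain. Among the same 19, *Fen1* rose under both treatments (0.63 and 0.69).

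The promoters of *Parp1* and *Apex1* are set beside each other because these genes of one pathway went opposite ways in ouabain. Capitals mark the same letters as before.
Parp1, chr13:94839234-94839533, plus strand: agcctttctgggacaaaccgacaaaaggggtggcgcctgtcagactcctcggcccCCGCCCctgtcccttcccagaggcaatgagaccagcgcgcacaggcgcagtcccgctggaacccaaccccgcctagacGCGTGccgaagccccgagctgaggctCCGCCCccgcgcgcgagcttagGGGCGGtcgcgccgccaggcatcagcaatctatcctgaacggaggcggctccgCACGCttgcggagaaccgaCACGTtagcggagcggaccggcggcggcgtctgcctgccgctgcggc
Apex1, chr15:26617976-26618275, plus strand: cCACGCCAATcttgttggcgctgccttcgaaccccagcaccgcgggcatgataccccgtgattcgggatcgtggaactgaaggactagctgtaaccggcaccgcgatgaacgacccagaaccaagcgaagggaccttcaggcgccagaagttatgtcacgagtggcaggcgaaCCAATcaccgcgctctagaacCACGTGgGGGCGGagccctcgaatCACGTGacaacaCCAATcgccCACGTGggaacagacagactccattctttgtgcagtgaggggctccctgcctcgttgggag

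The *Parp1* promoter has 3 GGGCGG, no CCAAT, 1 ACGTG and 2 GCGTG, and a GC content of 70.3%. The *Apex1* promoter has 1 GGGCGG, 3 CCAAT and 1 GCGTG. It also holds 3 copies of the palindrome CACGTG, which are read as 6 ACGTG over both strands. At least 1 CACGTG occurs in 6.4% of 33469 RefSeq promoters of the same length, and 3 or more occur in 0.0568%. Besides *Apex1* it was found in *Ercc8*, *Lig3*, *Mgmt* and *Ung*, of which *Ercc8* and *Lig3* fell under both treatments. This motif was looked for after the sequence had been seen. A match of letters is a description and does not show that a factor binds there.

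Nucleotide excision repair held both falls and rises. *Xpa*, which verifies the damage and positions the nucleases, had signals of 6.87, 6.89 and 6.98 in K+-free medium and 6.85, 7.20 and 7.16 in ouabain, against 7.91, 7.90 and 8.05 in control cells. Treated arrays lay wholly below the controls, with falls by 1.04 (limma adjusted p = 2.01e-06) and by 0.89 (adjusted p = 8.56e-06). *Ercc1*, partner of the nuclease that cuts on the 5′ side of the lesion, was at 8.85, 8.78 and 8.78 in K+-free medium and 9.22, 9.35 and 9.12 in ouabain, against 9.93, 10.01 and 9.82 in control cells. The groups were separate, and the fall was 2.17-fold in K+-free medium (limma adjusted p = 2.06e-07) and 1.61-fold in ouabain (adjusted p = 1.1e-05).

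Lesion recognition showed changes in both directions. *Xpc*, which senses the distorted helix, fell by 0.59 in K+-free medium and by 0.37 in ouabain, with signals of 7.34 to 7.48 and 7.55 to 7.75, against 7.92 to 8.05 in control cells. After repeated quantile normalization the fall in ouabain was by 0.17 and was not called. *Rad23b*, which binds XPC and keeps it from degradation, rose instead. *Rad23b* signals were 13.12, 13.18 and 13.09 in K+-free medium and 13.11, 13.11 and 13.05 in ouabain, against 12.67, 12.75 and 12.66 in control cells. The rises were by 0.44 (limma adjusted p = 2.72e-05) and 0.40 (adjusted p = 7.25e-05), without overlap with the controls, and with signals centred on *B2m* the rise in ouabain became 0.24 and was not called. *Cetn2*, the centrin of the same complex, differed by 0.10 in K+-free medium (95% interval -0.13 to 0.33) and by -0.18 in ouabain (95% interval -0.42 to 0.05). Without ouabain replicate 3 the difference in ouabain was -0.30 and was called.

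The genes that couple repair to transcription also parted. *Ercc8*, a subunit of the ubiquitin ligase at stalled RNA polymerase, was at 7.76, 7.69 and 7.80 in K+-free medium and 7.41, 7.38 and 7.43 in ouabain, against 8.63, 8.63 and 8.49 in control cells. It fell by 0.84 (limma adjusted p = 3.54e-07) and by 1.18 (adjusted p = 3.43e-08). *Ercc6*, the ATPase that binds the stalled polymerase, had signals of 8.75, 8.61 and 8.69 in K+-free medium and 8.82, 8.94 and 8.80 in ouabain, against 8.37, 8.32 and 8.31 in control cells. All treated arrays of *Ercc6* were above the controls, with rises by 0.35 (limma adjusted p = 0.000524) and 0.52 (adjusted p = 2.53e-05), although the rise in K+-free medium was 0.19 and not called with signals centred on *B2m*. *Uvssa*, which acts beside them, differed by -0.15 in K+-free medium (95% interval -0.33 to 0.03) and by -0.06 in ouabain (95% interval -0.23 to 0.12), mostly at signals below the array medians. Of the 9 nucleotide excision repair genes measured, 5 fell (55.6%) and 2 rose (22.2%) under each treatment. Among all genes with a single symbol 24.0% fell and 17.8% rose in K+-free medium, and 22.7% fell and 17.5% rose in ouabain. The share of rises was thus close to that over all these genes.

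The helicase complex TFIIH, which opens the DNA around a lesion and also serves transcription, was named after its values had been seen. *Ercc3*, its translocase, fell by 0.41 in K+-free medium and by 0.55 in ouabain, with treated signals of 9.86 to 10.08, against 10.42 to 10.46 in control cells. The core subunits *Gtf2h3* (-0.85 and -1.17) and *Gtf2h4* (-0.89 and -1.07) fell, while *Gtf2h1* rose by 0.72 and 0.96. Of its kinase module, the cyclin *Ccnh* rose by 0.87 in K+-free medium and 0.55 in ouabain, *Mnat1* rose by 0.51 and 0.29, and the kinase *Cdk7* was not called (-0.13 and 0.10). The small core subunit *Gtf2h5* was not called either (0.14 and -0.14).

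All 5 mismatch repair genes measured fell in K+-free medium, and 3 fell in ouabain. *Pms1* and *Pms2* encode partners of the MutL complexes, and PMS2 carries the endonuclease. *Pms1* had signals of 6.59, 6.38 and 6.63 in K+-free medium and 6.88, 6.86 and 6.91 in ouabain, against 8.11, 7.97 and 7.94 in control cells. *Pms2* stood at 7.36, 7.21 and 7.54 in K+-free medium and 7.16, 7.09 and 7.30 in ouabain, against 8.67, 8.71 and 8.57 in control cells. Treated and control arrays were more than 1 log2 unit apart in both genes. *Pms1* fell by 1.47 (limma adjusted p = 3.24e-08) and by 1.13 (adjusted p = 2.81e-07), and *Pms2* fell by 1.28 (adjusted p = 3.55e-07) and by 1.47 (adjusted p = 1.51e-07).

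*Msh3*, which recognises looped-out bases, gave 6.86, 6.66 and 6.81 in K+-free medium and 7.43, 7.11 and 7.40 in ouabain, against 7.58, 7.67 and 7.56 in control cells. The differences were -0.83 in K+-free medium (limma adjusted p = 1.25e-05) and -0.29 in ouabain (adjusted p = 0.0199). The ouabain call was lost without control replicate 2 (-0.26) or ouabain replicate 2 (-0.19), and after repeated quantile normalization (-0.12). *Mlh3*, a further MutL partner, was lower in K+-free medium (-0.40, limma adjusted p = 0.00119) and overlapped the controls in ouabain (-0.01, 95% interval -0.18 to 0.16). *Exo1*, the exonuclease that removes the faulty strand, was also lower in K+-free medium (-0.32, limma adjusted p = 0.017) and differed by -0.22 in ouabain (adjusted p = 0.0775), which was called without control replicate 3 (-0.33). Control signals of *Exo1* were spread from 7.15 to 7.60, and the fall in K+-free medium was no longer called without control replicate 2 (-0.20) or K+-free replicate 1 (-0.31), and after repeated quantile normalization (-0.21).

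Of 3 genes of direct reversal 1 fell under both treatments. *Alkbh2*, a dioxygenase that strips alkyl groups from bases of double-stranded DNA, was lower in K+-free medium (-0.47, limma adjusted p = 0.00226) and in ouabain (-0.39, adjusted p = 0.00775), where the call was lost under the methods' t-test after Benjamini-Hochberg adjustment. Its relative *Alkbh3* was at 10.20 to 10.26 in K+-free medium and 10.04 to 10.14 in ouabain, against 10.24 to 10.26 in control cells, and neither difference passed the fold limit (-0.02 and -0.16). *Mgmt*, which takes alkyl groups off guanine, had signals of 9.35 to 9.46 in K+-free medium and 9.11 to 9.27 in ouabain, against 9.10 to 9.27 in control cells. Its difference of 0.24 in K+-free medium (adjusted p = 0.0108) was under the fold limit, and it was called after repeated quantile normalization (0.37).

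The treatments also differed from each other in 12 of the 35 genes, or 34.3%, beside 16.4% of all probe sets. In K+-free medium 8 were lower than in ouabain and 4 higher, where 7.97% of all probe sets were lower and 8.45% higher. The widest gap was that of *Ogg1*, 1.65-fold lower in K+-free medium (difference -0.72, SE 0.068, limma adjusted p = 2.15e-05). *Apex1* (-0.55, adjusted p = 4.05e-05), *Msh3* (-0.54, adjusted p = 0.000976), *Ung* (-0.50, adjusted p = 0.00022), *Ercc1* (-0.43), *Mlh3* (-0.39), *Smug1* (-0.38) and *Pms1* (-0.35) were lower as well. The 4 higher genes were *Parp3* (0.40, adjusted p = 0.000524), *Aptx* (0.39, adjusted p = 0.0166), *Parp2* (0.38, adjusted p = 0.0042) and *Ercc8* (0.34, adjusted p = 0.00117). Over the 35 genes the K+-free arrays lay wholly below the ouabain arrays in 14 and wholly above in 8, where the groups did not overlap in 32.4% of all probe sets. For *Aptx* the call was lost on leaving out any single K+-free array other than replicate 2 (0.32 without replicate 1 and 0.39 without replicate 3) or ouabain replicate 2 (0.33). *Mutyh* differed by -0.26 between the treatments (95% interval -0.42 to -0.11, adjusted p = 0.02), just under the fold limit. The median difference over the 35 genes was -0.08, beside -0.01 over all probe sets.

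**Figure D3:**
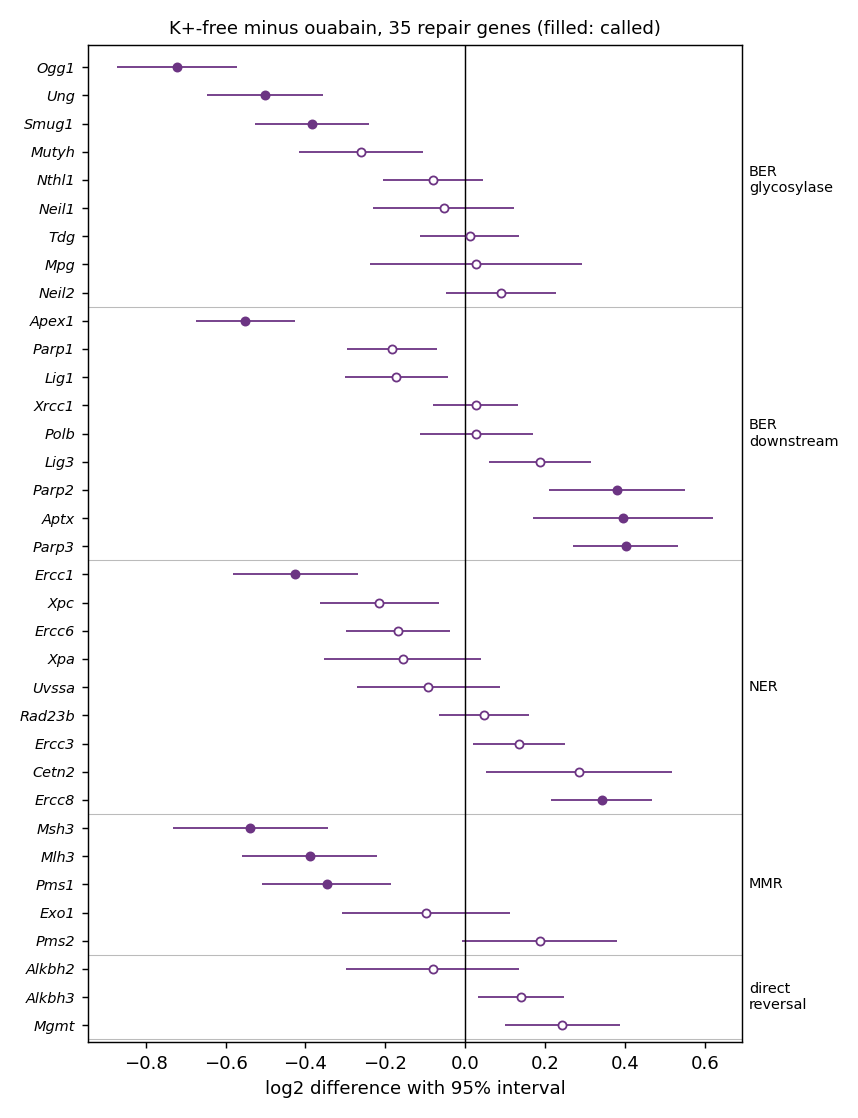
Log2 difference of K+-free medium minus ouabain (horizontal axis) for the 35 repair genes by pathway, with the 95% interval and filled points for called differences. The called points run from -0.72 for *Ogg1* to 0.40 for *Parp3*, with the uracil and oxidised guanine glycosylases on the left and *Parp2* and *Parp3* on the right.

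Genes that work beside these enzymes gave a mixed picture. Among 19 further genes of base excision and gap filling, 12 fell and 3 rose in K+-free medium, and 9 fell and 4 rose in ouabain. The study lists *Tdp1* and *Pold2* among its lowered genes, so their falls are not independent evidence. *Tdp1*, which frees trapped topoisomerase from DNA ends, fell furthest of the 19 under both treatments (-1.83 and -2.27). Next came *Pold2*, a subunit of the replicative polymerase delta, in K+-free medium (-1.77, and -1.04 in ouabain) and *Parg* in ouabain. The sliding clamp *Pcna*, which holds that polymerase on DNA, rose by 0.76 in K+-free medium (limma adjusted p = 1.9e-06) and 1.06 in ouabain (adjusted p = 1.63e-07). The subunits of its loader, picked out after their values were known, were lower. *Rfc1* (-0.99 and -1.27), *Rfc2* (-0.80 and -1.22), *Rfc3* (-0.55 and -0.44) and *Rfc4* (-0.81 and -0.77) fell under both treatments, and *Rfc5* fell in K+-free medium (-0.44) and was not called in ouabain (-0.21). Among 14 further genes of nucleotide excision repair, 5 fell and 4 rose in K+-free medium and 3 fell and 4 rose in ouabain. As shares of these 14, 35.7% fell and 28.6% rose in K+-free medium, and 21.4% fell and 28.6% rose in ouabain. For the 19 genes above the shares were 63.2% and 15.8%, then 47.4% and 21.1%. Among all genes with a single symbol 24.0% fell and 17.8% rose in K+-free medium, and 22.7% fell and 17.5% rose in ouabain.

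Several members, such as *Lig1*, *Ung*, *Exo1* and *Msh3*, are known to be higher in dividing cells, and genes of the cell cycle were lower on average too. Of 14 cycling genes measured, 10 fell and none rose in K+-free medium, and 7 fell and 2 rose in ouabain. Those of DNA replication did not fall throughout. *Mcm2* (0.50) and *Mcm6* (0.35) were the 2 that rose in ouabain, and neither was called in K+-free medium. *Mcm5* and *Rrm2* were called under neither treatment. *Mcm7* (-0.86) and *Tyms* (-0.27) fell in K+-free medium only. *Aurkb*, a cycling gene that the study lists among its lowered genes, fell under both treatments (-1.80 and -0.88). All 14 cycling genes together had a mean log2 signal of 10.12 to 10.16 in control cells. It was 9.61 to 9.67 in K+-free medium and 9.96 to 10.02 in ouabain. The part of this shift in the repair genes was not tested. The smooth muscle markers averaged 10.40 to 10.42 in K+-free medium and 10.21 to 10.32 in ouabain, against 10.76 to 10.78 in control cells, with 3 of 8 falling in K+-free medium and 7 in ouabain. Of 7 fibroblast markers 3 rose in K+-free medium and none in ouabain, with means of 10.66 to 10.71 and 10.40 to 10.46, against 10.32 to 10.39 in control cells. Of 7 macrophage markers 3 rose under each treatment, with means of 6.35 to 6.41 in K+-free medium and 6.51 to 6.56 in ouabain, against 6.01 to 6.07 in control cells. Those that rose were *Cd68* (0.94 and 1.29), *Csf1r* (0.53 and 0.33) and *Cd14* (0.43 and 1.27). *Cd14* lay above the median of all arrays and *Cd68* above that of the treated arrays, whereas *Ptprc*, *Itgam*, *Aif1*, *Adgre1* and *Csf1r* lay below the median of every array. Of 4 endothelial markers 1 rose under each treatment. Beside these counts and that of the cycling genes, 24.0% of all genes with a single symbol fell and 17.8% rose in K+-free medium. In ouabain the shares were 22.7% and 17.5%. The part of the marker shifts in the repair genes was not tested either.

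What the falling genes share beyond function was read from the annotation. The 35 genes lie on 17 chromosomes. The 22 that fell under both treatments had a median genomic span of 23.8 kb, beside 25.6 kb for the 13 others and 18.0 kb over genes on the array. Promoters were at hand for 29 of the 35 genes, and the median GC content of their promoters was 59.8%, against 58.0% over genes on the array. GGGCGG was found in 19 of the 29 (65.5%), against 50.1% of promoters of genes on the array and 33.1% of all promoters. Its matches were in 14 of 18 genes that fell under both treatments and in 5 of 11 others. CCAAT was found in 14 of the 29 (48.3%, against 38.2% and 37.5%), that is in 5 of 18 and in 9 of 11. ACGTG was found in 12 (41.4%, against 22.1% and 19.3%), that is in 6 of 18 and in 6 of 11. GCGTG was found in 19 (65.5%, against 40.5% and 29.7%), that is in 13 of 18 and in 6 of 11. The letters TTTCCCGC, searched for E2F, were in none of these windows. They were in 1.6% of promoters of genes on the array and 1.0% of all promoters, so a count of none in 29 says little. Both strands were searched, ACGTG and GCGTG cannot share a start, and these counts carry no test.

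Some repair genes share their start region with a gene that runs the other way. Within 1000 bases, 12 of the 29 genes (41.4%) had such a head-to-head neighbour, as did 12.8% of 11806 genes on the array with a promoter entry, given here with no test. Of these neighbours 7 had a probe set. *Toe1*, whose start lies 72 bases from that of *Mutyh*, fell by 0.79 in K+-free medium and by 0.88 in ouabain (limma adjusted p = 1.81e-06 and 8.86e-07), less far than *Mutyh*. *Tsc2*, 95 bases from *Nthl1*, fell by 0.68 and by 0.82. *Lsm3*, 101 bases from *Xpc*, fell by 0.28 in K+-free medium and was below the fold limit in ouabain (-0.25). The neighbour of *Apex1* at 113 bases is *Osgep*, a gene of tRNA modification. *Osgep* fell in K+-free medium (-0.38, SE 0.075, limma adjusted p = 0.00151) and rose by 0.28 in ouabain (adjusted p = 0.0113).

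Other pairs did not move together. *Aimp2*, 214 bases from *Pms2*, rose by 0.71 in ouabain (limma adjusted p = 6.07e-06), while *Pms2* fell by 1.47, and in K+-free medium *Aimp2* was not called (-0.15). *Rrp9*, 708 bases from *Parp3*, rose by 0.59 in K+-free medium and 0.76 in ouabain. *Nsdhl*, a gene of cholesterol synthesis 259 bases from *Cetn2*, fell by 2.36 and by 1.85, whereas *Cetn2* was not called. The study lists *Nsdhl* too among its lowered genes. The neighbours thus comprised 5 falls and 1 rise in K+-free medium and 3 falls and 3 rises in ouabain. Over all genes with a single symbol, 24.0% fell and 17.8% rose in K+-free medium. In ouabain these shares were 22.7% and 17.5%. The search for neighbours was chosen after the members' values had been seen.

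**Figure D4:**
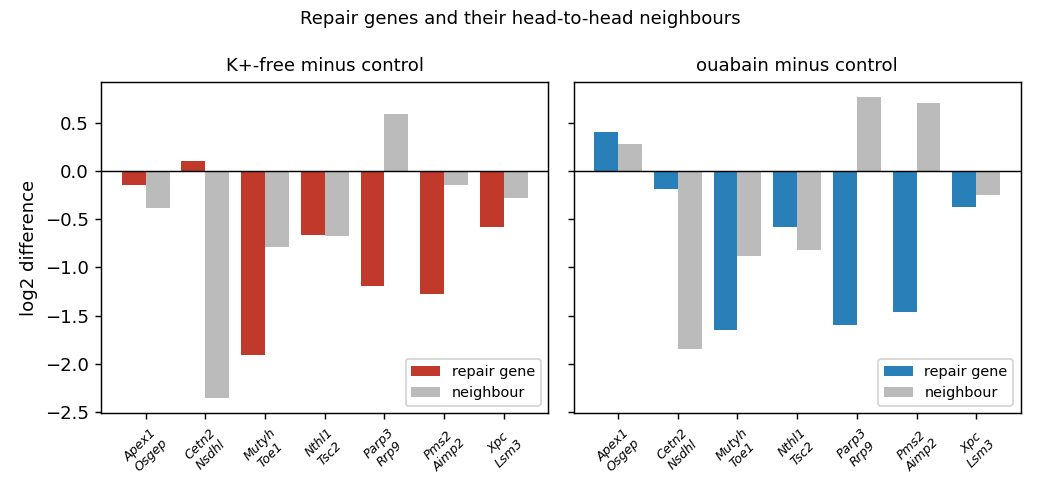
Log2 difference from control (vertical axis, bars from 0, no errors drawn) of 7 repair genes and of the gene that starts next to each on the other strand (grey), in K+-free medium (left) and ouabain (right). *Mutyh* and *Nthl1* fell together with their neighbours in both panels, the neighbour of *Xpc* fell in K+-free medium and was not called in ouabain, and *Parp3* is lower where *Rrp9* is higher.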

How the data were processed

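RNA of 9 cultures, 3 per condition, had been hybridised to Affymetrix Rat Gene 1.0 ST arrays. For each of 27342 probe sets the submitters deposited a signal on the log2 scale. The submitters' processing notes name Partek and RMA, with versions not given in the sources used here, and a general section of the methods also names MAS5. The values were used without further scaling. RMA brings all arrays to one distribution, so a change of total RNA per cell cannot be seen. The replicates come from independent experiments, and their number limits the precision.

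Probe sets were named by the platform annotation. Of 27342, 15097 carry 1 symbol and 323 several, and probe sets with several were not used for named genes. A gene with several probe sets was given the one with the highest mean. The members and lists were chosen with earlier results of these data known. Values per array are given for genes past 2-fold under a treatment, called raised, or called over 0.5 apart between treatments. Of partner genes the 3 largest called changes each way were named, and *Fen1* and subunits of TFIIH and of the clamp loader were added after their values had been seen.

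limma 3.58.1 in R 4.3.3 gave each condition 1 mean over 9 arrays, its variances moderated by eBayes with a prior worth 4.59 degrees of freedom, and used Benjamini-Hochberg adjustment over all probe sets. The fit was tested on simulated data. Promoters and gene spans are RefSeq on GRCr8, read with Python 3.11.15, and plots were drawn with matplotlib 3.10.9. Alternative settings comprised a repeated quantile step, other centrings (medians, 9 reference genes, *B2m*), filters on probe sets, a replicate block, 6 arrays alone, other variance models and tests, other fold limits and leaving out each array.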

Additional observations from a re-analysis of the deposited data

How the results depend on the processing

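No member that was called changed direction under any alternative listed here. Centring on *B2m* moved the median of all probe sets to -0.10 in K+-free medium and -0.08 in ouabain, against 0.06 and 0.07 without it, so small rises depend on the scaling. The median of the 35 genes was -0.43 in K+-free medium and -0.43 in ouabain after repeated quantile normalization, -0.61 and -0.61 centred on the reference genes, and -0.70 and -0.69 centred on *B2m*. Leaving out single arrays gave -0.58 to -0.50 in K+-free medium, -0.54 to -0.51 in ouabain, and -0.081 to -0.033 for K+-free medium minus ouabain. On *B2m* 1 gene rose in K+-free medium and 1 in ouabain. With no fold limit 4 rose in K+-free medium. With a limit of 1.5-fold 0 rose under either treatment, 15 fell in ouabain, and set against ouabain, K+-free medium had 0 genes higher and 1 lower. With the methods' t-test after Benjamini-Hochberg adjustment, K+-free medium had 2 genes higher than ouabain and 5 lower. That test lost the calls of *Exo1* and *Mpg* in K+-free medium, of *Mpg*, *Msh3* and *Alkbh2* in ouabain, and of *Aptx*, *Mlh3*, *Msh3*, *Parp2* and *Pms1* between the treatments, and an ordinary analysis of variance lost those of *Exo1* and *Mpg* in K+-free medium, of *Mpg* and *Msh3* in ouabain and of *Aptx* between the treatments. In a fit with the replicate number as a block, 25 genes fell and 2 rose in K+-free medium, 23 fell and 3 rose in ouabain, and 4 were higher and 8 lower between them, so that no call changed. The methods state that control and treated cells were handled in parallel within each experiment. The labels do not say whether a shared replicate number marks the same experiment. Arrays with the same number correlated in their deviations at -0.05 to 0.31 (9 pairs), and those with different numbers at -0.28 to 0.16 (18 pairs). These overlapping ranges do not settle whether the numbers mark pairs. The causes were not tested. Background was not measured, and *Neil2* and *Mpg* lay under the median of every array.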
